A study of Mus musculus with 4 samples.

Results

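Whole-genome bisulfite sequencing (WGBS) of 4 E11.5 mouse embryonic brains was used to describe a class of low-methylated, CpG-poor stretches of the genome and their response to loss of Tet1 and to maternal folic acid (FA). The stretches were 1 kb tiles of the 19 autosomes. A tile was chosen by its number of CpGs, 6 to 19, and by its methylation level in a single library, 10% to 50% in the wild-type (WT) brain of the 3 ppm FA diet. It also needed 3 or more CpGs with 5 or more reads in all 4 libraries. In all, 35684 of the 1209312 tested tiles with 6 to 19 CpGs met the rule, among 1863069 tested tiles of any CpG number. The level of a tile is the methylated share of all reads over its covered CpGs, in percent, and a difference between 2 libraries is given in percentage points.

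The 4 embryos were Tet1KO or Tet1WT of the 129S6.cg Tet1<tm1Koh> strain, an allele engineered in C57BL/6 (B6) mice by placing a cassette at the start codon and then backcrossed to 129S6. Their dams, heterozygous for Tet1, received a diet with excess FA (30 ppm) or control FA (3 ppm), and every diet also held 1% succinylsulfathiazole, a sulfonamide that limits folate made by gut bacteria. All 4 titles carry an M, and 1 library was made per group (Tet1KO 30 ppm, Tet1WT 30 ppm, Tet1KO 3 ppm and Tet1WT 3 ppm), so no level has an SD and no difference has a replicate check. Embryos with the same numbers appear in the sample list of another assay of the study with a neural tube defect for both Tet1KO and as normal for both Tet1WT, each from its own litter, so genotype, phenotype and litter cannot be told apart. Mean coverage per autosomal CpG was 13.2 in Tet1KO 30 ppm, 14.3 in Tet1WT 30 ppm, 21.2 in Tet1KO 3 ppm and 16.2 in Tet1WT 3 ppm. The methylated share at mitochondrial CpGs, taken as the background from unconverted cytosines, was 0.914% to 0.938%. The Tet1 gene (chr10:62804570-62908996, GRCm38) was covered at 0.889 to 0.984 of the autosomal mean in the 4 libraries, which checks no label, since an inserted cassette need not change coverage.

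Most CpGs of a mammalian genome are methylated. The exceptions are CpG islands, which are dense in CpG and mostly unmethylated, and CpG-poor stretches of intermediate or low methylation, many of which lie away from gene starts and are bound by transcription factors in the tissue concerned. TET1 is a dioxygenase that oxidises 5-methylcytosine to 5-hydroxymethylcytosine and further products, a step toward the unmethylated state. Bisulfite reads 5-methylcytosine and 5-hydroxymethylcytosine alike, so the levels below are the sum of both. Intermediate levels in a bulk brain can come from a mixture of methylated and unmethylated cells. No histone mark or accessibility measurement was used here, so the tiles are named by their CpG number and level and not as enhancers.

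Sequences of 6 tiles are shown first, because the single tiles described below are among them. Each is the 300 bases of the tile with the most covered CpGs among stretches that overlap no annotated UTR, plus strand of the GRCm38 reference, and CG in capitals marks CpGs with 5 or more reads in all 4 libraries. The first 3 lie near genes of brain patterning and of early neurons, at Ebf3 (chr7:137308639-137308938), Sox1 (chr8:12407699-12407998) and Hesx1 (chr14:26971236-26971535). They hold 11, 11 and 6 covered CpGs.
Ebf3 tile: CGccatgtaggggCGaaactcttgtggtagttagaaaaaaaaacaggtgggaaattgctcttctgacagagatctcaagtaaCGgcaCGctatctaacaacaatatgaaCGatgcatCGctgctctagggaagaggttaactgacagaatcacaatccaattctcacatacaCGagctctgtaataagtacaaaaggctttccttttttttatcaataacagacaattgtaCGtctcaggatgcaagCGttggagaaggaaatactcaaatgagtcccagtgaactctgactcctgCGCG
Sox1 tile: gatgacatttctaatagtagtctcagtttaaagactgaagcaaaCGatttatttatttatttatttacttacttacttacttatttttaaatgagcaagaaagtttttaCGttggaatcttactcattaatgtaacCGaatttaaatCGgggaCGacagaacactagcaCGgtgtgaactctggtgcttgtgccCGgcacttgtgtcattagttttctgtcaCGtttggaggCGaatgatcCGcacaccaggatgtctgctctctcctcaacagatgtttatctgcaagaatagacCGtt
Hesx1 tile: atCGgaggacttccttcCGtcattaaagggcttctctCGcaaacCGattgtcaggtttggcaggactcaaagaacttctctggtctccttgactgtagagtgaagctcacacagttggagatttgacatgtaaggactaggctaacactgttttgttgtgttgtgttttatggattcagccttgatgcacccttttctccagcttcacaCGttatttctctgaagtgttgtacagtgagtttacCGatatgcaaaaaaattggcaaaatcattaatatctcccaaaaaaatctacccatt
The next 3 belong to the tiles with the largest rise in Tet1KO at 30 ppm, in introns of Tet1 (chr10:62881681-62881980), Rims2 (chr15:39660198-39660497) and Emp1 (chr6:135363247-135363546). Their covered CpGs number 5, 8 and 9.
Tet1 tile: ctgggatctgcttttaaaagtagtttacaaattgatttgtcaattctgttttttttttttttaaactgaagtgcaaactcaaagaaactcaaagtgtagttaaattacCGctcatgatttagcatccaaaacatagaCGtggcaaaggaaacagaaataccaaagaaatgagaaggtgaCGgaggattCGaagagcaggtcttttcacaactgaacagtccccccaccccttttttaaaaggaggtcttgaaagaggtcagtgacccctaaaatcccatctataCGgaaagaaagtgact
Rims2 tile: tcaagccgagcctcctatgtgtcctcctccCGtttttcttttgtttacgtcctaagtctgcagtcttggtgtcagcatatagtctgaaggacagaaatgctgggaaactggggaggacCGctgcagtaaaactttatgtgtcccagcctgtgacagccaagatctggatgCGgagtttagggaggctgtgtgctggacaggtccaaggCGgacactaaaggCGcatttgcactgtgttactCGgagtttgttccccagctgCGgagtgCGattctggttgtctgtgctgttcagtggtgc
Emp1 tile: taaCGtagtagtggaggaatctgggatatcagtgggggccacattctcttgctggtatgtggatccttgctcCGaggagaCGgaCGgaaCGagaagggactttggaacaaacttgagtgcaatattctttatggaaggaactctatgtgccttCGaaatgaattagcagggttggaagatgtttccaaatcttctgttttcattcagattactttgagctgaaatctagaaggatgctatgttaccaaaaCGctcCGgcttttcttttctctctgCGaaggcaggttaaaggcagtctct

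The tiles were more methylated in both Tet1KO libraries than in either Tet1WT library. Their median level was 46.2% in Tet1KO 30 ppm, 38.0% in Tet1WT 30 ppm, 44.9% in Tet1KO 3 ppm and 39.0% in Tet1WT 3 ppm, the library that chose them. The 10th to 90th percentile ran from 25.4% to 63.8% in Tet1KO 30 ppm and from 17.9% to 53.5% in Tet1WT 30 ppm. In Tet1KO, 38.2% (30 ppm) and 35.0% (3 ppm) of the tiles lay above 50%, against 16.3% in Tet1WT 30 ppm. A median tile was read 96 times in Tet1KO 30 ppm, 107 in Tet1WT 30 ppm, 159 in Tet1KO 3 ppm and 122 in Tet1WT 3 ppm, counting a read once at each CpG it covers.

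**Figure D1:**
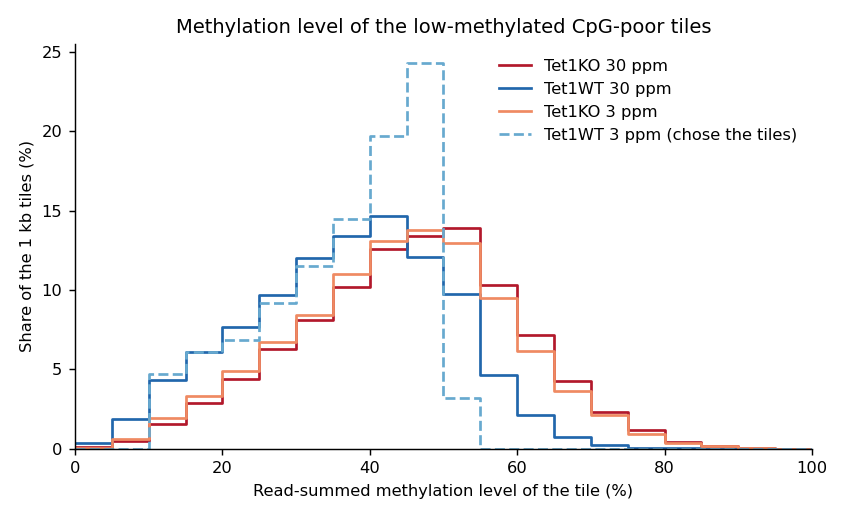
Share of the 35684 tiles (y axis, %) by their read-summed methylation level (x axis, bins of 5 points) in the 4 libraries, with 1 library per line. The dashed line is Tet1WT 3 ppm, whose limits of 10% and 50% chose the tiles (the 3.22% at exactly 50% stand in the next bin). Both Tet1KO lines lie to the right of Tet1WT 30 ppm.

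Tet1WT 30 ppm was not used by the rule and shows what choosing in a single library does. The median of Tet1WT 30 ppm minus Tet1WT 3 ppm over the tiles was 0.137 points, against -0.593 over all tested tiles, and 0.453 points with all libraries thinned to the shallowest. Of the tiles, 81.4% also lay at 10% to 50% in Tet1WT 30 ppm. Conversely, 38837 tiles met the limits in Tet1WT 30 ppm, and over these the same contrast was -3.24 points, so that the library that chose the tiles had the lower level. The 29063 tiles shared by both choices were 81.4% of one set and 74.8% of the other. Of the tiles, 22 were called higher and 45 lower in Tet1WT 30 ppm than in Tet1WT 3 ppm, or 0.0617% and 0.126%, beside 0.00886% and 0.0381% of all tested tiles. Since the rule used this contrast, nothing is read from these counts.

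The first question was whether loss of Tet1 goes with a different level in these tiles at 30 ppm, where neither library had chosen them. Tet1KO exceeded Tet1WT in 78.2% of the tiles, with a median difference of 7.74 points (10th percentile -4.59, 90th percentile 22.6). Over all tested tiles 59.3% were higher in Tet1KO and the median was 1.23 points. A tile was called where a two-sided Fisher's exact test of its reads passed Benjamini-Hochberg adjustment over all tested tiles (adjusted p below 0.05) and the levels were 10 or more points apart. On this rule 3528 of the tiles (9.89%) were higher in Tet1KO, or hyper. The share over all tested tiles was 1.13%. With 10 reads required per CpG 1713 of 24699 tiles (6.94%) were hyper, beside 0.681% of all tiles then tested, and with tiles chosen in Tet1KO 3 ppm 2035 of 27938 (7.28%). Only 16 tiles (0.0448%) were called lower, or hypo, beside 0.0487% of all tested tiles. The tiles made up 16.7% of all hyper calls of the genome. The test compares the reads of 2 embryos and not the genotypes, and treats reads at neighbouring CpGs as independent, so its p-values can be too small.

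At 3 ppm the tiles had a median Tet1KO minus Tet1WT of 6.60 points, with 3970 hyper (11.1%) and 42 hypo (0.118%), beside 1.10% and 0.114% of all tested tiles. Tet1WT 3 ppm chose the tiles, so these values are a description. For the 38837 tiles chosen in Tet1WT 30 ppm instead, neither 3 ppm library took part in the choice. There the median difference at 3 ppm was 4.59 points, 69.4% were higher in Tet1KO, and 3462 (8.91%) were hyper against 125 (0.322%) hypo. Over all tested tiles the median at 3 ppm was -0.159 points.

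Tiles called hyper at 30 ppm had a median of 30.0% in Tet1WT and 57.1% in Tet1KO. At 3 ppm the same 3528 tiles had a median difference of 15.2 points, 90.1% were higher in Tet1KO, and 1521 (43.1%) were hyper there too. Among the tiles not hyper at 30 ppm, 7.62% were hyper at 3 ppm and the median difference there was 5.95 points. Of all the tiles, 22118 (62.0%) were higher in Tet1KO at both diets, with 78.2% higher at 30 ppm and 76.7% at 3 ppm. Unrelated signs with these shares would give a value close to 62.0%, so no agreement between the diets is read from it. Tiles hyper at both diets stood at 32.9% and 34.3% in Tet1WT and at 63.0% and 61.1% in Tet1KO (medians, 30 and 3 ppm). Those tiles were picked for that difference, and Tet1WT 3 ppm chose all the tiles, so the 3 ppm values here are a description.

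Against the starting level, the difference at 30 ppm had a peak within the chosen range. Among tiles of 6 to 19 CpGs, the median rose from 1.84 points at 0 to 5% in Tet1WT 3 ppm to 8.78 points at 20 to 25%, and fell to 3.32 points at 70 to 75% and 0.378 points at 95 to 100%. Just inside and outside the limits it was 7.33 points at 10 to 15% and 5.39 points at 5 to 10%, 6.82 points at 45 to 50% and 6.32 points at 50 to 55%. A level near 100% leaves little room for a rise, which the difference in points does not correct.

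**Figure D2:**
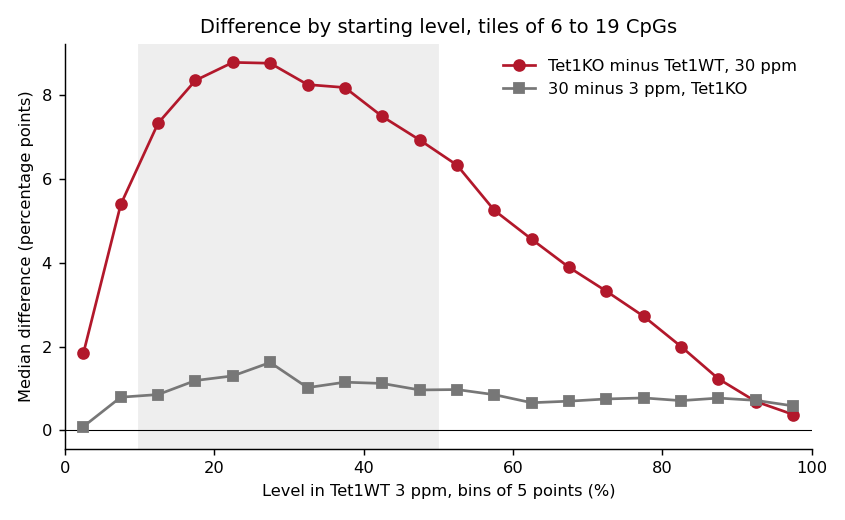
Median difference in percentage points (y axis) for tiles of 6 to 19 CpGs by their level in Tet1WT 3 ppm (x axis, bins of 5 points), for Tet1KO minus Tet1WT at 30 ppm (circles) and 30 minus 3 ppm in Tet1KO (squares). The grey band marks the chosen range of 10% to 50%. The genotype difference is highest at 20 to 25%, at 8.78 points, and the diet difference stays between 0.0911 and 1.62 points in every bin.

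CpG number went with the size of the difference. Tiles of 6 to 7 CpGs had a median of 4.11 points with 2.17% hyper, tiles of 10 to 12 CpGs 8.39 points with 8.86%, and tiles of 16 to 19 CpGs 10.6 points with 21.2%. Outside the rule, tiles of 20 or more CpGs in the same range of levels had a median of 10 points with 23.6% hyper, and tiles of under 6 CpGs 2.16 points with 0.509%. The number of reads rose with CpG number, from a median of 144 at 6 to 7 CpGs to 310 at 16 to 19 CpGs over the pair of libraries. With the tiles divided by reads into 3 sets of similar size, the medians were 6.44, 7.60 and 8.86 points from fewest to most reads. The hyper share depends on reads directly, the median difference less so, and how much of the CpG gradient goes with reads was not tested.

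Few of the tiles lay at gene starts, but a larger share than among all tested tiles, of which 4.09% lay within 1 kb of a start. The start of a protein-coding transcript lay within 1 kb of 5162 tiles (14.5%), 1 to 10 kb from 21.4%, 10 to 50 kb from 29.0% and over 50 kb from 35.1%. For CpG-poor tiles at over 50% in Tet1WT 3 ppm, called methylated CpG-poor tiles below, the shares within 1 kb and over 50 kb were 3.03% and 44.8%. For CpG-dense tiles at 10% to 50%, 58.4% lay within 1 kb of a start. The centre of the tile was intronic in 43.0%, exonic in 2.84% and outside coding genes in 54.1%. The difference at 30 ppm was 10.2 points within 1 kb of a start (15.1% hyper) and 6.13 points beyond 50 kb (7.87% hyper). Methylated CpG-poor tiles in the same positions had medians of 2.41 and 0.985 points, with 2.25% and 0.604% hyper. Over all tested tiles there, 5.54% and 0.651% were hyper.

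CpG islands were computed from the reference as windows of 500 bp with a GC content of 55% or more and an observed over expected CpG ratio of 0.65 or more. Of the tiles, 5.64% touched such an island, 8.12% lay within 2 kb and 86.2% lay farther away. The shares were 0.214%, 2.26% and 97.5% for methylated CpG-poor tiles, and 1.25%, 2.14% and 96.6% for all tested tiles. Those farther away had a median difference of 7.28 points with 8.76% hyper, those within 2 kb 11.6 points with 18.3%. All tested tiles had the same order, with 1.17 points and 0.954% hyper farther away and 3.05 points and 4.46% within 2 kb. Repeats, as soft-masked in the reference, covered over 50% of the bases in 5.33% of the tiles and in 14.6% of methylated CpG-poor tiles. In these repeat-rich tiles the difference was 3.12 points with 2.74% hyper, beside 0.329 points and 0.176% over all tested repeat-rich tiles.

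In the median the tiles dipped below their surroundings, but many had a low neighbour or an untested one. At 1 kb to either side the median level in Tet1WT 30 ppm was 74.1% and 73.8%, and at 5 kb 84.5% on both sides. A run of a single tile held 82.8% of them, and the longest run was 6 tiles. Both neighbouring tiles were over 50% in Tet1WT 3 ppm for 44.4% of the tiles, a neighbour was at 10% to 50% for 20.4% and under 10% for 13.7%, and a neighbour was not tested for 21.5%. Isolated dips, with both neighbours over 50%, had a median difference of 7.41 points at 30 ppm and 8.30% hyper. The edge tiles with a neighbour under 10% had 10.4 points and 17.9% hyper, and 56.1% of those lay in or within 2 kb of a computed island against 2.21% of the isolated dips. Edge tiles also had more CpGs, a median of 13 against 10 in isolated dips. Their median level in Tet1WT 3 ppm was lower, 31.4% against 41.1%. How much of the contrast goes with CpG number or starting level was not tested. The difference faded with distance, from 7.74 points in the tile to 3.40 and 3.46 points at 1 kb and 2.03 and 2.05 points at 5 kb, where the level is also higher.

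**Figure D3:**
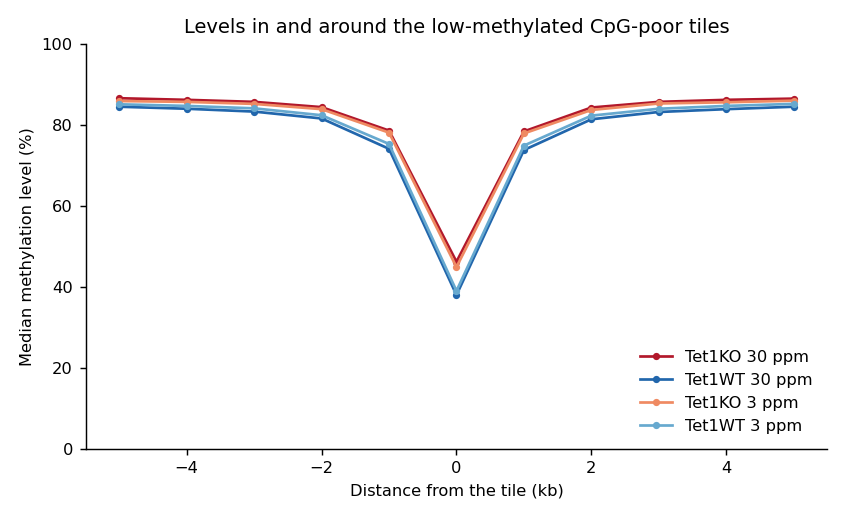
Median methylation level (y axis, %) in the tile and in tested tiles up to 5 kb to each side (x axis, kb), 1 line per library. All 4 libraries dip at the tile, to 46.2%, 38.0%, 44.9% and 39.0%, and both Tet1KO lines lie above both Tet1WT lines at the tile and at 1 kb.

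**Figure D4:**
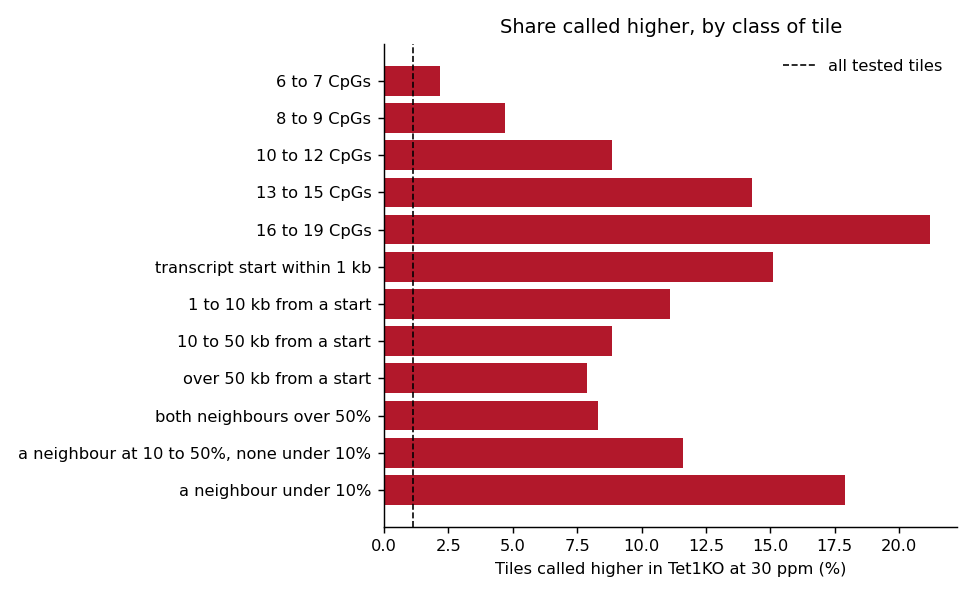
Share of the tiles called higher in Tet1KO at 30 ppm (x axis, %) by number of CpGs, by distance to a transcript start and by the level of the neighbouring tiles in Tet1WT 3 ppm. Bars start at 0, and the dashed line is the share over all tested tiles, 1.13%. All 12 classes lie above it, from 2.17% at 6 to 7 CpGs to 21.2% at 16 to 19 CpGs.

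Within a tile, CpGs of lower and higher level stood side by side, and many were intermediate. The covered CpGs of each tile were divided, in order, into the 2 stretches of at least 2 CpGs that differed most in Tet1WT 3 ppm. The lower and the higher stretch had medians of 18.6% and 61.3% in Tet1WT 30 ppm, and 64.7% of the 33496 tiles with 4 or more covered CpGs differed by over 30 points. In Tet1KO 30 ppm the same stretches had 27.8% and 70.4%, with median differences of 6.67 and 6.83 points. By the level of the single CpG in Tet1WT 3 ppm, the read-summed Tet1KO minus Tet1WT at 30 ppm was 4.78 points for CpGs at 0 to 10%, 12 at 10 to 30%, 13.7 at 30 to 50%, 11.2 at 50 to 70% and 5.63 at 70 to 90%. Among CpGs with 10 or more reads, those at 20% or less made up 31.4% in Tet1KO 30 ppm, 43.0% in Tet1WT 30 ppm, 33.6% in Tet1KO 3 ppm and 41.7% in Tet1WT 3 ppm. CpGs at 80% or more made up 21.4%, 14.5%, 19.4% and 13.4% in the same order, and those in between 47.2%, 42.5%, 47.0% and 44.9%.

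Some low levels rest on CpGs that may not exist in these mice. The reads were aligned to a B6 reference, and a CpG lost in strain 129 reads as unmethylated in every library. Covered CpGs with no methylated read in any library and with the nearest covered CpG on each side within 1 kb and at 60% or more in Tet1WT 3 ppm were 1.26% of the CpGs in the tiles, and 3247 tiles (9.10%) held such a CpG. In methylated CpG-poor tiles they were 0.805% of the CpGs, and 6.25% of those tiles held one. The 3247 low-methylated tiles with such a CpG had a median difference of 1.94 points at 30 ppm with 1.08% hyper, and the tiles without one 8.42 points with 10.8% hyper. The split uses the Tet1KO 30 ppm reads themselves, since such a CpG has no methylated read there, so a smaller difference is partly built in and nothing is read from it. Whether these CpGs are strain variants was not tested.

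Sequence motifs were searched on both strands, motifs being allowed to overlap. A CTCF core, CAGGGGGC, was in 5.05% of the tiles and in 2.37% of methylated CpG-poor tiles. At a GC content of 40% to 50% in both sets the shares were 4.49% and 2.38%, a ratio of 1.89. CTCF is a zinc finger protein that shapes chromatin loops and binds sites of low methylation. A variant of that core, CAGGTGGC, was in 6.02% against 4.20%, with a ratio of 1.24 at matched GC content. The E-box CAGCTG, a site of neural basic helix-loop-helix factors, was in 43.5% against 34.9%, with a ratio of 1.16. The ratio was 1.24 for the REST motif TTCAGCACC, 1.18 for the ETS motif CCGGAAG, 1.14 for the POU octamer ATGCAAAT, 1.13 for the homeodomain motif TAATTA and 1.08 for the SOX motif CATTGTT. The ETS motif itself holds a CpG, and CpG number was not matched. The median was 11 CpGs over all the tiles and 9 over all methylated CpG-poor tiles. Without the GC match the homeodomain motif was in 27.3% of the tiles and 27.6% of methylated CpG-poor tiles, and the SOX motif in 17.4% and 17.0%. The unmatched shares were 1.28% and 1.01% for REST, 4.52% and 3.41% for ETS and 7.59% and 7.22% for POU. CpG-dense tiles at 10% to 50%, not matched for GC, held several of these motifs more often than the tiles. Their shares were 8.04% for the CTCF core, 7.88% for its variant, 43.8% for the E-box CAGCTG, 1.75% for REST and 15.6% for ETS. POU, homeodomain and SOX were rarer there, with 4.42%, 17.6% and 9.52%. The other 5 motifs had ratios from 0.948 (the proneural E-box CAGATGG) to 1.09 (the TEAD motif ACATTCC). Tiles with the CTCF core had a median difference of 8.81 points at 30 ppm and tiles without it 7.69 points. A match is a run of letters and not a measured binding site.

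The tiles took a larger share of CpG-poor tiles near genes of brain development than over the genome. Within 50 kb of a transcript start of 45 genes of neural progenitors and brain patterning, such as Sox2, Pax6 and Otx2, 318 of 3055 tiles with 6 to 19 CpGs (10.4%) were low-methylated by the rule, and each of the 45 genes had at least 1. For 34 proneural and early neuron genes, such as Neurog2 and Neurod1, the share was 7.59% (162 of 2134). It was 6.92% for 26 genes of cranial neural tube closure, 5.98% for 30 genes of muscle, heart and mesoderm, 4.82% for 24 genes of liver and gut and 3.83% for 25 genes of blood and endothelium. The share was 3.44% within 50 kb of any coding gene and 2.95% genome-wide. At least 1 low-methylated tile was also near each of the 34 proneural and early neuron genes, and near 15699 of 20698 coding genes. No test of these shares was made.

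In the difference between genotypes the lists were close to each other. The median at 30 ppm was 9.43 points for the neural progenitor list (47 of 318 tiles hyper), 10.4 for the proneural list (21 of 162), 9.16 for the neural tube closure list (22 of 143), 10.3 for the mesoderm list (19 of 131), 10.8 for the liver and gut list (12 of 74) and 8.82 for the blood list (6 of 72). Over all tiles within 50 kb of a coding gene it was 8.67 points with 2541 of 23143 hyper. No tile of any list was hypo, beside 0.0448% of all the tiles, a share at which lists of this size would hold few or none. By count of hyper tiles, the list genes that stood out after their values were seen were Gbx2, a homeobox gene of the midbrain and hindbrain, with 4 of 7, and Shroom3, an actin-binding protein needed for neural tube closure, with 4 of 16. Vangl2 of the planar cell polarity pathway and its neighbour Nhlh1 share the same 3 hyper of 7 tiles each. By nearest gene, Zfp608 had the most tiles, 61, with 1 hyper, and then Rbfox1, 56 with 3 hyper, Auts2, 51 with 5, and Ptprd, 48 with 1.

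The tiles with the most reads near genes of both neural lists, at most 1 per gene, gave 12 single cases. All 12 were higher in Tet1KO than in Tet1WT at 30 ppm, by 3.76 to 21.5 points, and 7 were hyper. They were picked for their reads. Of the 11850 low-methylated CpG-poor tiles with the most reads, the highest of 3 sets by reads at 30 ppm, 85.4% were higher in Tet1KO and 18.5% were hyper, against 9.89% hyper among all such tiles. At 3 ppm 8 of the 12 were higher in Tet1KO, with differences from -12.9 to 22.7 points. Tet1WT 3 ppm chose the tiles, so the 3 ppm differences of single tiles, here and below, are a description. The Wilson 95% intervals of the 2 libraries at 30 ppm were apart in 8 of 12 tiles. Intervals given here cover counting error only.

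At Neurod1, a basic helix-loop-helix factor of neuronal differentiation, a tile over an exon (chr2:79453001-79454000) stood at 55.7% in Tet1KO 30 ppm (interval 50.6% to 60.7%) and at 41.2% in Tet1WT 30 ppm (36.1% to 46.5%). At 3 ppm it stood at 52.6% and 43.9%. The 30 ppm difference of 14.5 points was called hyper (Fisher's exact test, adjusted p = 0.0162). Both Tet1KO libraries were above both Tet1WT libraries.

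The Sox1 tile (chr8:12407001-12408000, outside coding genes, 11706 bp from a start of Sox1) had 35.3% in Tet1KO 30 ppm (30.1% to 40.9%) and 19% in Tet1WT 30 ppm (15.4% to 23.1%). At 3 ppm it had 29.2% and 26.3%, with overlapping intervals of 25.3% to 33.4% and 22.1% to 31.0%. SOX1 is a transcription factor of neural progenitors. The difference at 30 ppm was 16.4 points (adjusted p = 5.38e-04 by Fisher's exact test), and 2.85 points separated the 3 ppm libraries. Over the 300 bases printed above, its 11 CpGs had 26.8%, 12.7%, 21.6% and 16.9% in Tet1KO 30 ppm, Tet1WT 30 ppm, Tet1KO 3 ppm and Tet1WT 3 ppm.

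Pou3f2 encodes a POU factor of neural progenitors and neurons. Its tile (chr4:22476001-22477000, 11366 bp from the start) had 55.9% in Tet1KO 30 ppm (49.6% to 61.9%), 34.3% in Tet1WT 30 ppm (28.9% to 40.2%), 58.3% in Tet1KO 3 ppm (53.5% to 62.9%) and 35.6% in Tet1WT 3 ppm (30.6% to 41.0%). The intervals of Tet1KO and Tet1WT were apart at both diets, where the 3 ppm pair includes the library that chose the tiles. The Sox21 tile (chr14:118194001-118195000, 42030 bp from the start) also had both Tet1KO libraries above both Tet1WT libraries, with 64.1%, 44.3%, 63.5% and 48.9% in the same order of libraries. SOX21 is a transcription factor of neural progenitors.

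The tile at Ebf3, an early B-cell factor family member of differentiating neurons (chr7:137308001-137309000, intron), had 35.6% in Tet1KO 30 ppm, 25.6% in Tet1WT 30 ppm, 28.3% in Tet1KO 3 ppm and 20.6% in Tet1WT 3 ppm. Its difference at 30 ppm, 10 points, was not called (Fisher's exact test, adjusted p = 0.188). The 11 CpGs of the printed stretch were lower, with 21.6%, 8.78%, 10.5% and 3.58%. The Hesx1 tile (chr14:26971001-26972000), which overlaps a start of the neighbouring Appl1, had 51.5%, 44.4%, 46.5% and 39.3% in the same order of libraries and was not called either.

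The Tcf7l2 tile in an intron (chr19:55894001-55895000), which overlaps a start of this WNT pathway factor, had 30.6% in Tet1KO 30 ppm and 14.1% in Tet1WT 30 ppm, with 27.9% and 26.4% at 3 ppm. The low library was Tet1WT 30 ppm. At Elavl4, an RNA-binding protein of neurons (chr4:110289001-110290000), Tet1KO 30 ppm stood alone at 62.3%, with 42.8% in Tet1WT 30 ppm and 51.4% and 47.8% at 3 ppm. At Nfia, a factor of glial differentiation (chr4:97844001-97845000, intron), the order changed with diet. Tet1KO had 45.8% and Tet1WT 26.3% at 30 ppm, while Tet1KO had 17.6% and Tet1WT 30.5% at 3 ppm.

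The other 3 tiles, at Meis1 (25%, 17.6%, 16.2% and 21.8%), Fabp7 (44.9%, 41.1%, 46.3% and 46.6%) and Fezf2 (43.6%, 39.2%, 40.5% and 42.5%), were not called. Their levels are in the order Tet1KO 30 ppm, Tet1WT 30 ppm, Tet1KO 3 ppm and Tet1WT 3 ppm. In these 3 and at Nfia, Tet1KO was below Tet1WT at 3 ppm.

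Among hyper tiles with 5 or more covered CpGs and a mean coverage of 10 or more in each library, chromosome 18 left out, the 7 largest rises ranged from 54.3 to 61.7 points at 30 ppm. They were chosen for that difference, so it is a description. At 3 ppm Tet1KO was higher in all 7, by 24.6 to 57.5 points. Tet1WT 3 ppm chose the tiles for a low level, so this can be partly built in and is a description as well. Of the 7, 3 lay on chromosome 10, which carries Tet1.

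The largest rise was in an intron of Tet1 itself (chr10:62881001-62882000, 9 covered CpGs). The tile had 91.2% in Tet1KO 30 ppm (86.5% to 94.3%), 29.5% in Tet1WT 30 ppm (22.9% to 37.1%), 85.1% in Tet1KO 3 ppm (80.4% to 88.9%) and 34.0% in Tet1WT 3 ppm (27.0% to 41.7%). The targeted allele is of B6 origin and carries a cassette in this gene, so allele, strain and loss of the protein cannot be told apart here. A pair of tiles upstream of Prep, which encodes prolyl endopeptidase, stood at 88.5% in Tet1KO against 32.3% in Tet1WT at 30 ppm (chr10:45032001-45033000) and at 90.3% against 35.6% (chr10:45059001-45060000). Part of the CpGs carried the difference. In the first tile 5 of 10 covered CpGs had no methylated read in either Tet1WT library and 72.2% to 100% in the Tet1KO libraries, and in the second 3 of 7 had none and 79.1% to 100%. A further CpG of the first tile had 78.6% in Tet1KO and 7.69% in Tet1WT at 30 ppm, and 89.7% and 0% at 3 ppm. The remaining 4 CpGs of that tile had 83.3% to 92.3% in Tet1KO and 66.7% to 91.7% in Tet1WT at 30 ppm, and the other 4 of the second tile together 91.1% and 88.6%. A CpG that is absent from the Tet1WT sequence would read the same way, so methylation and sequence cannot be told apart at these CpGs.

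The Prep tiles lie in a block of chromosome 10 from 40 to 46 Mb whose 123 tiles had a median difference of 11.8 points with 23.6% hyper. Of the 29 hyper tiles of the block, 18 held a CpG with no methylated read in both Tet1WT libraries and 60% or more in both Tet1KO libraries. With such CpGs, in either direction, left out and the tiles chosen again, the block had 102 tiles, a median of 10.1 points and 11.8% hyper. Over all tiles, 53 (0.149%) held such a CpG and none held the reverse, and without these CpGs the median was 7.73 points with 3501 hyper. This rule picks CpGs by their difference between the genotypes. Around Tet1, from 58 to 68 Mb, 143 tiles had a median of 7.80 points with 11.9% hyper. Outside the block from 40 to 46 Mb, the other 1413 tiles of the chromosome had 7.68 points with 10.7% hyper, and the 34148 tiles of other chromosomes 7.72 points with 9.80% hyper. Over single chromosomes the median ran from 6.83 points (chromosome 14) to 9.14 points (chromosome 11).

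Rims2 encodes a presynaptic active zone protein. The tile in its intron, 435 bp from an annotated start (chr15:39660001-39661000), had 75.5% in Tet1KO 30 ppm (66.1% to 83.0%), 14.4% in Tet1WT 30 ppm (9.41% to 21.4%), 68.5% in Tet1KO 3 ppm (61.0% to 75.2%) and 11% in Tet1WT 3 ppm (6.08% to 19.1%). All 8 of its covered CpGs lie in the 300 bases printed above. At Emp1, an epithelial membrane protein (chr6:135363001-135364000, 70 bp from a start), the levels were 89.9%, 31.3%, 76.2% and 42.6% in Tet1KO 30 ppm, Tet1WT 30 ppm, Tet1KO 3 ppm and Tet1WT 3 ppm. In both tiles the intervals of Tet1KO and Tet1WT were apart at both diets, where the 3 ppm pair includes the choosing library.

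The remaining rises were near Pitx1, a homeobox factor of the hindlimb and pituitary, 146809 bp from its start, and near Calcb, a calcitonin gene-related peptide. In Tet1KO and Tet1WT at 30 ppm they had 79.7% and 25.4%, and 75.0% and 20.7%.

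**Figure D5:**
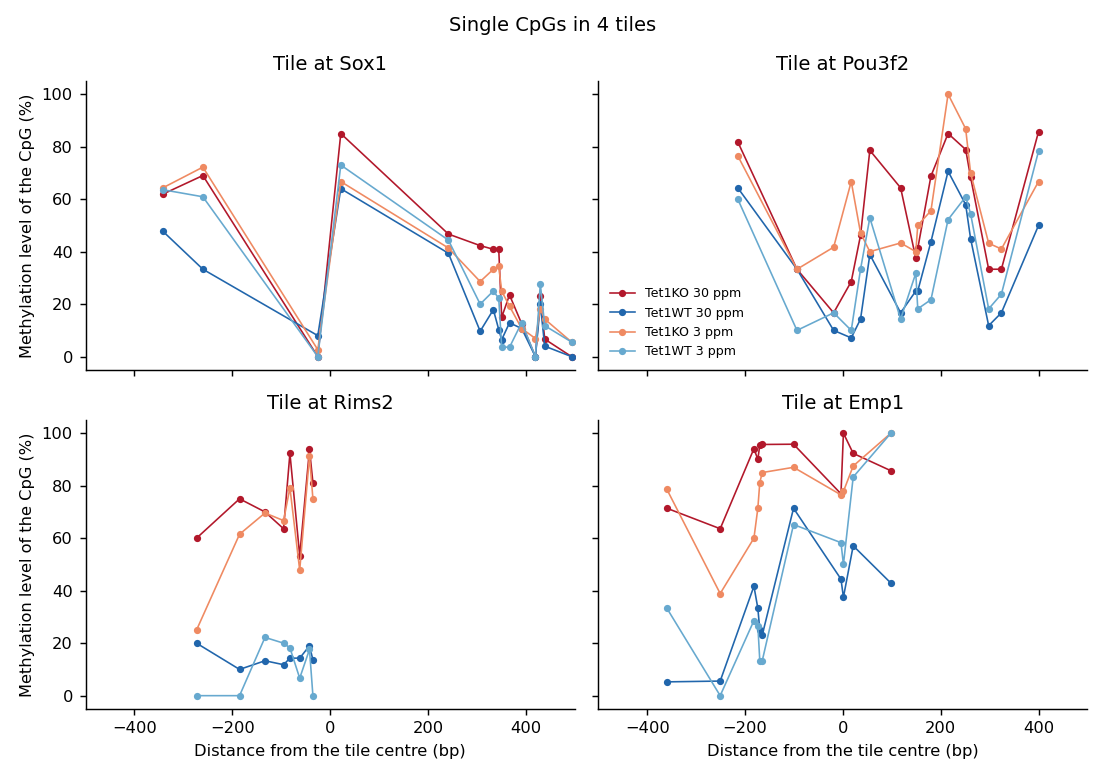
Methylation level of single CpGs (y axis, %) by distance from the tile centre (x axis, bp) in the tiles at Sox1, Pou3f2, Rims2 and Emp1, 1 line per library. At Rims2 both Tet1KO lines lie above both Tet1WT lines at all 8 CpGs, while at Sox1 the 4 lines cross.

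With chromosome 18 left out here too, and after the largest fall, which is not reported here, the next falls at 30 ppm lay near Tas2r134, Serbp1 and Kcnc2, by -24.4, -22.1 and -20.8 points. The Tas2r134 tile (chr2:51531001-51532000) had 33.8% in Tet1KO 30 ppm and 58.2% in Tet1WT 30 ppm, but 45.1% and 39.2% at 3 ppm, where Tet1KO was the higher. The Kcnc2 tile (chr10:112229001-112230000) had 12.7% and 33.5% at 30 ppm and 19.4% and 29.7% at 3 ppm, with Tet1KO lower at both diets. Of the 16 hypo tiles, 4 were lower in Tet1KO at 3 ppm as well.

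The diet question could be asked without the choosing library in Tet1KO. There, 30 minus 3 ppm had a median of 1.11 points over the tiles, and 0.758 points over all tested tiles. In all, 115 tiles (0.322%) were hyper and 23 (0.0645%) hypo at 30 ppm, beside 0.0430% and 0.0253% of all tested tiles. This comparison shares the Tet1KO 30 ppm library with the genotype comparison at 30 ppm. The 115 hyper tiles had medians of 51.6% in Tet1KO 30 ppm, 29.6% in Tet1KO 3 ppm, 30.1% in Tet1WT 30 ppm and 35.4% in Tet1WT 3 ppm. The 23 hypo tiles had 36.4%, 58.8%, 42.3% and 39.5% in the same order. Both sets were chosen for their difference between the Tet1KO libraries, so that a high Tet1KO 30 ppm in the first and a high Tet1KO 3 ppm in the second follow from the choice. The largest differences, named after their values were seen, were a tile 46642 bp from a start of Kcnq3, a potassium channel gene (chr15:66239001-66240000), with 50.7% and 11.6%, and a tile 1345 bp from a start of Rhobtb1 (chr10:69277001-69278000), with 61.0% and 93.4%. Without a replicate, diet and embryo cannot be told apart. Tet1KO 3 ppm is also the deepest library, and with all libraries thinned to the shallowest the counts were 41 (0.116%) and 2 (0.00567%), beside 0.0195% and 0.00747% of all tested tiles. With 10 reads per CpG they were 52 (0.211%) and 10 (0.0405%), beside 0.0291% and 0.0164%.

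The authors' differentially methylated regions (DMRs), called from the same libraries with DSS and deposited as positions, are not independent of these counts. Of the 4359 autosomal hyper DMRs of Tet1KO against Tet1WT at 30 ppm, 914 (21.0%) overlapped a tile by at least 1 bp, and so did 959 of 4362 (22.0%) at 3 ppm. Tet1WT 3 ppm chose the tiles and is a side of the 3 ppm DMRs, so the overlap at 3 ppm can be partly built in and is a description. The 948 tiles overlapped at 30 ppm were 2.66% of the tiles, and DMRs covered 0.297% of all tested tiles. The hypo DMRs, 42 and 50, covered 38 and 16 tested tiles of any kind, too few to read anything from the absence of an overlap. Of the diet DMRs in Tet1KO, 16 of 129 hyper and 0 of 69 hypo overlapped a tile, where these DMRs covered 115 and 52 tested tiles.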

How the data were processed

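Whole-genome bisulfite libraries of 4 embryonic brains were analysed, 1 per group. The authors trimmed the reads with Trim Galore 0.6.10, aligned them with Bismark 0.23.1 to GRCm38.p6, removed duplicates and merged the strands of each CpG. The deposited CpG tables hold, per the file headers, the methylated fraction (0 to 1) and the read count at each CpG, with no normalisation. The product of both was within 4.37e-11 of a whole number and was rounded to methylated reads. Depth is given as mean coverage per CpG in the report.

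Fisher's exact test and Benjamini-Hochberg adjustment were run in numpy 2.4.6 and numba 0.67.0 and checked on simulated data. Calls used an adjusted p below 0.05 and 10 points or more between the levels. Genes came from GENCODE vM21, distances from transcript starts of protein-coding genes. Wilson intervals are at the 95% level. Sequences over annotated UTRs and chromosome 18 were not printed, so the Neurod1 tile gave way to the Hesx1 tile, the next by reads. Named tiles are the 12 with the most reads near genes of both neural lists, and the 8 largest rises and 4 largest falls at 30 ppm, chromosome 18 left out, of which 1 rise and the largest fall are not reported here. Members, lists and rules were chosen with earlier results of these data known. Alternatives covered coverage, CpG number, depth, tile grid, level, choosing library, range, chromosome 10 and call size. The DMR lists that the authors deposited hold positions only, and those of Tet1KO against Tet1WT and of diet in Tet1KO were used. The limits for computed CpG islands were made stricter after seeing the data, because looser ones marked many short stretches, and the looser values are not shown.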

Additional observations from a re-analysis of the deposited data

Results flagged for a closer look

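In 5 of the named tiles, Tet1KO minus Tet1WT had opposite signs at the diets, with 1 embryo per group, and the difference between the diets was not tested. Tet1WT 3 ppm also chose the tiles. The Nfia tile was 19.5 points higher in Tet1KO at 30 ppm and -12.9 points at 3 ppm. The Meis1 tile had 7.43 and -5.66 points, the Fezf2 tile 4.32 and -2.05 points, the Fabp7 tile 3.76 and -0.378 points, and the Tas2r134 tile -24.4 and 5.95 points.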

How the results depend on the processing

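Of the first 13 alternatives, each one run for the median difference between Tet1KO and Tet1WT left it above 0, at 30 ppm and at 3 ppm. At 30 ppm it was 7.74 points, and 6.91 with 10 reads per CpG, 8.10 with 5 covered CpGs, 7.31 as the mean over CpGs, 8.28 without the isolated zero CpGs, 6.24 and 7.06 with tiles chosen in Tet1KO 3 ppm and in the mean of the 3 ppm pair, and 8.47 for tiles at 20% to 40%. At 3 ppm it was 6.60 points, 6.92 after thinning and 4.59 when chosen in Tet1WT 30 ppm. The diet median in Tet1KO was 1.11 points, 1.20 after thinning and 1.21 at 20% to 40%, and in Tet1WT 0.137 points and 0.453 after thinning.

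Tiles at 20% to 40% numbered 15258. Hyper tiles at 30 ppm numbered 3528, and 1713 with 10 reads, 2035 when chosen in Tet1KO 3 ppm and 1665 at 20% to 40%. Hypo tiles numbered 16, and 8 with 10 reads, 9 after thinning, 8 at 20% to 40% and 7 at a difference of 20 points. By diet in Tet1KO, the 115 hyper tiles became 52 with 10 reads, 41 after thinning and 61 at 20% to 40%, and the 23 hypo tiles became 10, 2 and 11, and 15 at 20 points. Fewer tiles enter with 10 reads or a narrower range, and thinning removes reads. With all-or-none CpGs left out, an alternative added after seeing the data, all 7 values stayed close (hyper at 30 ppm 3501, diet in Tet1KO 114). In all, 55 values stayed within the interval of the median or within 1.5 times the count, and 27 did not. No paired analysis was possible by replicate number, because each group has 1 library. A fit of genotype plus diet over all 4 libraries was not run, since it would use Tet1WT 3 ppm, which chose the tiles. A median tile was read 96 to 159 times. The simulated reads held few changed tiles, which makes the adjustment stricter than in the real data, so no share of missed differences is read from them. A tile that was not called may still differ.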
